A study of Mus musculus with 2 samples.

Results

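A module of 35 genes for the contractile apparatus of striated muscle was followed in total RNA from mouse adrenal gland. The members were taken from a list of gene names that covers thin and thick filament proteins, the Z-disc, calcium handling and the fuel supply of contraction, and all 35 were found among the 55536 annotated genes of GENCODE M21. The samples were adrenal glands of male B6Cast F1 mice, hybrids of C57BL/6J and CAST/EiJ, taken 10 days after birth. They form a single untreated group with 1 library for replicate 1 and 1 library for replicate 2, each made from 300 ng of total RNA with ERCC spike-ins (synthetic control RNAs). Sample characteristics and library descriptions disagree on the number of the animal behind replicate 2, and both samples carry 1 donor identifier, so a difference between the libraries cannot be assigned to animals. No treatment, genotype or age was compared, and with 2 libraries the smallest 2-sided exact p is 0.5, so no p-value is given.

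A skeletal muscle fibre contracts when calcium from the sarcoplasmic reticulum binds troponin on the actin filament and lets myosin heads pull. Most of these proteins exist in fast, slow and cardiac forms made from separate genes, so the mixture of forms in an RNA sample describes the kind of striated muscle it comes from. The adrenal gland itself is built from steroid-producing cortex cells and catecholamine-producing chromaffin cells, and skeletal muscle fibres are not among its known cell types. In whole-tissue RNA, fewer cells of a type and less RNA per cell cannot be told apart.

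Expected counts over all entries totalled 36982665 and 38984236 in replicates 1 and 2. Markers of the labelled tissue were detected: 8 of 8 adrenal cortex genes, among them Hsd3b1, Star, Cyp21a1 and Cyp11a1, and 8 of 8 chromaffin genes, among them Chga, Chgb, Pnmt and Npy, reached at least 1 TPM (a share of all transcripts, corrected for transcript length) in both libraries. Their summed levels were 6346.1 and 5553.4 TPM for the cortex list and 1717.5 and 1449.4 TPM for the chromaffin list. The lists were chosen with earlier results of these data known, and the share of all genes at 1 TPM was not computed. Genes of other tissues reached this level too, 10 of 10 liver and 9 of 10 brown fat genes, so it does not single out the adrenal gland. Over the 13190 genes whose counts averaged 100 or more, the median log2 ratio of replicate 2 over replicate 1 was -0.01. Scaling centres the typical gene by design, so this median cannot show that the libraries were balanced. Of these genes, 4.37% were more than 2-fold higher in replicate 2 and 0.114% more than 2-fold lower.

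All 35 striated muscle genes had higher scaled counts in replicate 2 than in replicate 1. The same held for 51.4% of all annotated genes with more than 3 counts in at least 1 library. For Myl4, Tnnt2 and Tnni3 the interval for counting error includes no difference. Together the 35 genes took 0.135% of the counts on annotated genes in replicate 1 (95% Wilson interval 0.134 to 0.136) and 0.261% in replicate 2 (0.259 to 0.262). Their summed level was 548 and 1392.1 TPM. Of the 35 members, 31 reached at least 1 TPM in both libraries, a level for which no share over all genes was computed. The median member stood at 5.44 and 11.4 TPM, a mean of 8.42 ± 4.21 TPM (SD, n = 2). The median member was thus low in level, while the top of the list carried most of the sum. The 4 most abundant members, Acta1, Mylpf, Myl1 and Ckm, held 53.5% and 56.6% of the summed TPM. By counts, which grow with transcript length, the giant spring protein titin (Ttn) alone held 46.4% and 35.0% of the reads on the module.

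**Figure D1:**
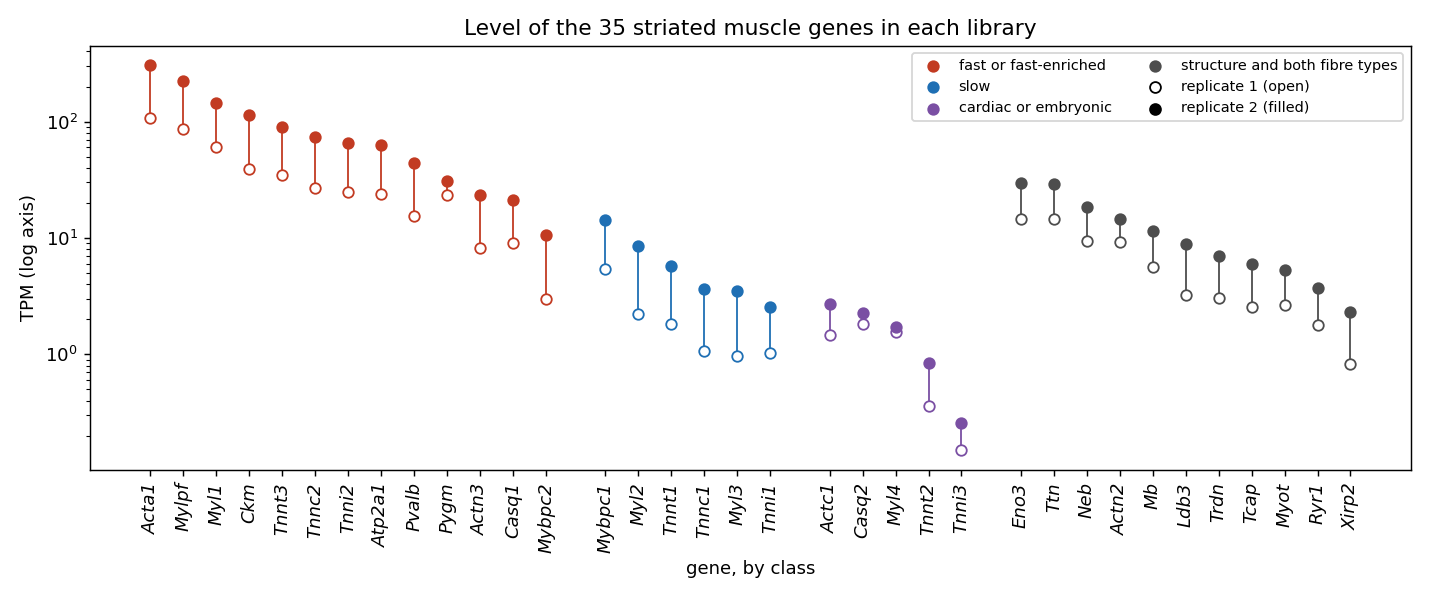
TPM of each of the 35 genes (y axis, log scale) in replicate 1 (open points) and replicate 2 (filled points), with genes grouped by class on the x axis and a line joining both libraries. Every filled point lies above its open point, and the class of fast or fast-enriched forms has the highest median. It is led by Acta1, a form of skeletal muscle at large, at 107 and 305 TPM.

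Fast or fast-enriched forms made up 13 of the 35 genes and had median levels of 24.6 and 65.1 TPM in replicates 1 and 2. In this class Acta1, Ckm and Pygm are forms of skeletal muscle at large rather than of fast fibres alone. Acta1, the actin of the skeletal thin filament, stood at 107 and 305 TPM, places 482 and 151 among protein-coding genes. Its scaled counts were 2.90-fold higher in replicate 2 (95% Clopper-Pearson interval 2.81 to 2.99, counting error only, as for all fold intervals here). Both fast myosin light chains followed. Mylpf, the regulatory chain, stood at 86.8 and 225 TPM, a fold of 2.56 (2.40 to 2.72). Myl1, the essential chain, stood at 60.2 and 143 TPM, a fold of 2.43 (2.29 to 2.57). Both were near 2.5-fold higher and their intervals overlap.

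The 3 fast troponin subunits lay close together in level and in ratio. Tnnt3, the subunit that anchors the complex to tropomyosin, stood at 35.0 and 90.4 TPM, a fold of 2.61 (2.43 to 2.80). Tnni2, the inhibitory subunit, stood at 24.6 and 65.1 TPM, a fold of 2.68 (2.43 to 2.96). Tnnc2, the calcium-binding subunit, stood at 26.9 and 73.3 TPM, a fold of 2.77 (2.52 to 3.05). All 3 intervals overlap, so counting error alone does not separate the ratios of these subunits of 1 complex. Mybpc2, the fast form of myosin-binding protein C on the thick filament, was lower in level, with 3.01 and 10.6 TPM, and had the highest fold of the class, 3.58 (3.19 to 4.01). Actn3, the fast-fibre alpha-actinin that crosslinks actin at the Z-disc, stood at 8.16 and 23.5 TPM, a fold of 2.87 (2.63 to 3.13).

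Fast genes for calcium and fuel handling had similar ratios, with Pygm as the exception. Atp2a1, the calcium pump of fast fibres, stood at 23.9 and 62.7 TPM, a fold of 2.61 (2.49 to 2.73). Casq1, the calcium store protein of the reticulum, stood at 9.09 and 21.1 TPM, a fold of 2.52 (2.27 to 2.80). Pvalb, a soluble calcium buffer that speeds relaxation, stood at 15.4 and 43.9 TPM, a fold of 2.89 (2.61 to 3.22). These 3 genes span pump, store and buffer of the calcium cycle. Ckm, the muscle creatine kinase that regenerates ATP, stood at 39.4 and 115 TPM, a fold of 2.94 (2.76 to 3.12). Pygm, the muscle glycogen phosphorylase, stood at 23.6 and 30.6 TPM and was 1.41-fold higher (1.33 to 1.50), the lowest ratio of the fast class and the only one of its 13 genes under 2-fold.

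The 6 slow forms stood far lower, with medians of 1.44 and 4.71 TPM. Myl2, the regulatory light chain of slow fibres and of the ventricle, stood at 2.21 and 8.46 TPM and had the highest ratio of the module, 4.13 (2.90 to 6.02). Myl3, the essential light chain of the same fibres, stood at 0.97 and 3.53 TPM, a fold of 3.50 (2.32 to 5.45). Tnnc1, the troponin C shared by slow fibres and heart, stood at 1.06 and 3.68 TPM, a fold of 3.50 (2.20 to 5.77). These intervals are wide because replicate 1 held 39, 30 and 24 counts of the 3 genes. Tnnt1, slow troponin T, stood at 1.82 and 5.75 TPM, a fold of 3.42 (2.50 to 4.73), and Tnni1, slow troponin I, stood at 1.02 and 2.56 TPM, a fold of 2.64 (1.78 to 3.99). Mybpc1, called the slow form of myosin-binding protein C but also known from fast fibres, was the most abundant of the class with 5.44 and 14.3 TPM and had its lowest fold, 2.31 (2.10 to 2.54).

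The 5 genes of cardiac or embryonic forms were scarce, and their median fold, 1.39, was the lowest of the 4 classes. Actc1, the actin of heart and of developing skeletal muscle, stood at 1.47 and 2.71 TPM, a fold of 1.87 (1.40 to 2.51). Casq2, the calcium store protein of heart and slow fibres, stood at 1.82 and 2.27 TPM, a fold of 1.39 (1.12 to 1.73). Myl4, the light chain of atrium and embryonic muscle, stood at 1.55 and 1.73 TPM, a fold of 1.15 (0.739 to 1.79) whose interval includes no difference. The remaining pair, cardiac troponin T (Tnnt2) and cardiac troponin I (Tnni3), stayed between 0.15 and 0.85 TPM. Tnni3 rested on 4 and 5 counts, so its fold of 1.25 (0.269 to 6.31) sets no direction, and the same holds for Tnnt2 at 1.67 (0.900 to 3.18). Of 12 heart genes, 3 (Nppa, Nppb and Nkx2-5) had no count in either library, which allows up to 3 counts each, and Myl7 had 0 and 4 counts. Others were detected: Myh6 had 23 and 75 counts, a fold of 3.26 (2.02 to 5.46), and Bmp10 had 21 and 96, a fold of 4.58 (2.83 to 7.73). The 3 heart genes whose counts averaged 100 or more had folds under 1. Among all genes with that mean, 48.9% were higher in replicate 2. Ryr2 was at 0.669 (0.613 to 0.730) and Tbx20 at 0.887 (0.817 to 0.963). Tbx5 was at 0.841 (0.634 to 1.12), an interval that includes no difference. The summed level of the heart list was 12.0 and 12.3 TPM, led by Tbx20, Ryr2, Myh6 and Tbx5.

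Structural genes and genes of both fibre types numbered 11, with medians of 3.23 and 8.81 TPM. Ttn, the spring that spans the half-sarcomere, had 22942 counts in replicate 1 and 35233 in replicate 2, a fold of 1.54 (1.51 to 1.56), while its TPM of 14.6 and 28.9 differed 1.99-fold. TPM divides by the length of the transcripts to which reads are assigned, and annotated Ttn transcripts differ greatly in length, so the ratio of this gene depends on the scale. Neb, nebulin along the thin filament, stood at 9.45 and 18.6 TPM, a fold of 1.92 (1.84 to 2.01). Xirp2, an actin-binding protein of the cell junction, stood at 0.83 and 2.33 TPM, a fold of 2.86 (2.53 to 3.23). By counts the intervals of Ttn, Neb and Xirp2 do not overlap, while by TPM Ttn (1.99) and Neb (1.97) had nearly the same ratio and Xirp2 a higher one (2.81).

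Z-disc genes covered a similar range. Actn2, the alpha-actinin of all striated fibres, stood at 9.20 and 14.5 TPM, a fold of 2.12 (1.92 to 2.33) by counts and of 1.58 by TPM. Ldb3, a PDZ-LIM protein that binds alpha-actinin, stood at 3.23 and 8.81 TPM, a fold of 2.81 (2.44 to 3.23). Tcap, telethonin at the end of titin, stood at 2.57 and 6.00 TPM, a fold of 2.36 (1.81 to 3.11). Myot, the actin-bundling myotilin, stood at 2.64 and 5.34 TPM, a fold of 2.06 (1.74 to 2.45). Among these 4 genes the intervals of Ldb3 and Actn2 do not overlap. Ryr1, the calcium release channel, stood at 1.80 and 3.73 TPM, a fold of 2.22 (2.05 to 2.41), and Trdn, the triadin that ties it to the calcium store, stood at 3.04 and 7.01 TPM, a fold of 2.45 (2.04 to 2.95). Eno3, the muscle enolase of glycolysis, stood at 14.5 and 29.7 TPM, a fold of 2.08 (1.90 to 2.28), and Mb, the oxygen store myoglobin, stood at 5.62 and 11.4 TPM, a fold of 2.43 (2.02 to 2.94).

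Across the module the median log2 ratio was 1.33, a fold of 2.52. Of the 29 members whose counts averaged 100 or more, 24 were more than 2-fold higher in replicate 2 and 0 were more than 2-fold lower. The background shares were 4.37% of the 13190 genes past the same minimum for higher and 0.114% for lower. The 5 members with enough counts that stayed under 2-fold were Actc1, Ttn, Neb, Pygm and Casq2, and the 6 under the count minimum were Tnnt2, Tnni1, Tnni3, Tnnc1, Myl3 and Myl4. By class, 12 of 13 fast forms, 3 of 3 slow forms, 0 of 2 cardiac or embryonic forms and 9 of 11 structural genes passed 2-fold among those with enough counts. Median folds were 2.68 for fast, 3.42 for slow, 1.39 for cardiac or embryonic and 2.22 for structural genes. These are descriptions of a pair of libraries, with no replicate of either.

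**Figure D2:**
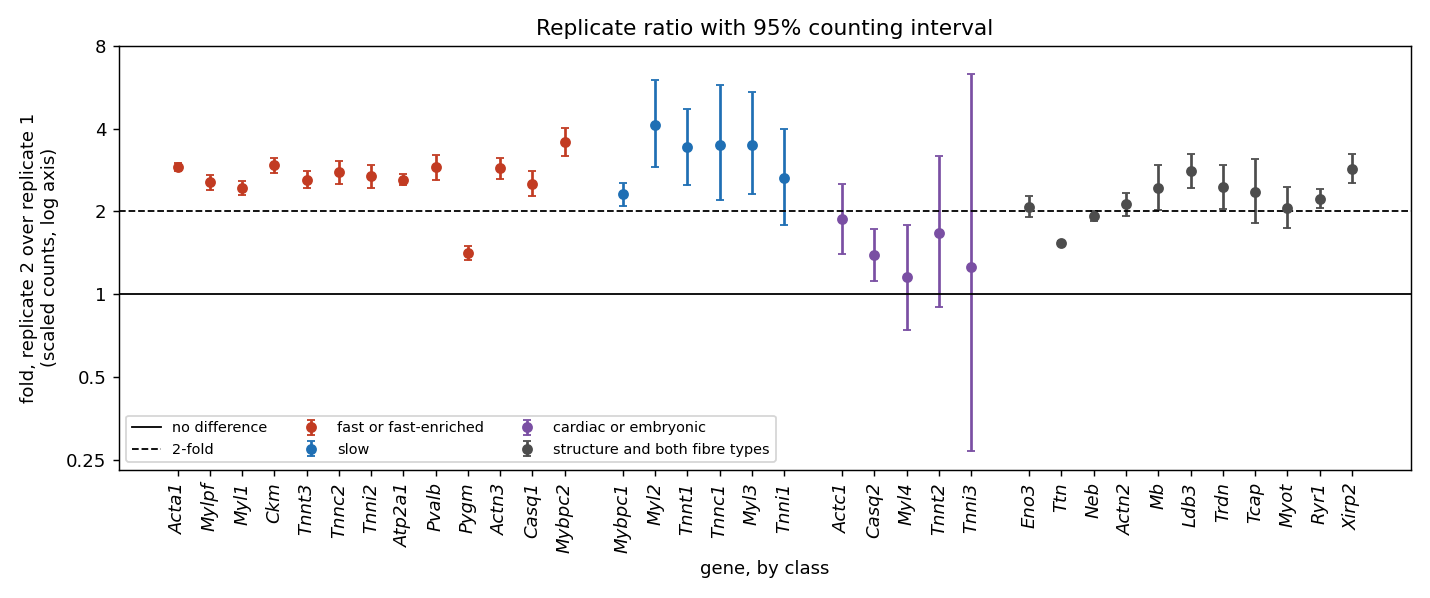
Fold of replicate 2 over replicate 1 in scaled counts (y axis, log scale) for each of the 35 genes by class, with bars for the 95% Clopper-Pearson interval. The solid line marks no difference and the dashed line 2-fold; 4 of the 5 cardiac or embryonic points, Pygm and Ttn lie under 1.7, while all 6 slow points lie above 2.3.

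The balance of fast against slow, cardiac or general forms was read within each library, where scaling between libraries plays no part. Over 9 pairs of related genes the median difference of log2(TPM + 0.1), fast minus the other form, was 4.19 in replicate 1 and 3.95 in replicate 2, a mean of 4.07 ± 0.17 (SD, n = 2). Fast forms led most in the light chains, where Myl1 exceeded Myl3 by 5.82 and 5.30 log2 units and Mylpf exceeded Myl2 by 5.23 and 4.72. The troponin pairs came next: Tnnc2 exceeded Tnnc1 by 4.54 and 4.28, Tnni2 exceeded Tnni1 by 4.46 and 4.62, and Tnnt3 exceeded Tnnt1 by 4.19 and 3.95. In this gene-level TPM, all 5 light chain and troponin pairs therefore showed fast forms at least 15.7-fold above slow forms in both libraries. By the second transcript table the gap of Tnnt3 over Tnnt1 was smaller, a mean of 3.65 against 4.07 log2 units. It was also smaller for Mylpf over Myl2 (4.4 against 4.98) and Tnni2 over Tnni1 (4.34 against 4.54). The gap was larger for Tnnc2 over Tnnc1 (4.87 against 4.41) and Myl1 over Myl3 (5.87 against 5.56).

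The remaining 4 pairs were closer to balance. Casq1 exceeded Casq2 by 2.26 and 3.16 log2 units. Mybpc2 stood below Mybpc1 in both libraries, with differences of -0.83 and -0.42. Actn3 and Actn2 differed by -0.17 and 0.69, and Atp2a1 stood below Atp2a2, the pump of slow fibres, heart and most other cells, by -1.63 and -0.10. Atp2a2 is no member of the module: its level was 74.2 and 67.1 TPM, a fold of 0.913 (0.890 to 0.937), so it did not follow the muscle genes between the libraries.

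Each form was also set against its fast partner by the ratio of both folds, which does not depend on scaling; this measure was added after the folds were seen, so it is a description. Myl2 had a fold 1.62 times that of Mylpf (95% interval 1.13 to 2.37, counting error only), and Myl2 is also the member with the highest fold. For the other slow forms of troponin and light chain the interval includes 1: the ratio of folds was 1.44 for Myl3 over Myl1 (0.950 to 2.25), 1.31 for Tnnt1 over Tnnt3 (0.952 to 1.83), 1.26 for Tnnc1 over Tnnc2 (0.786 to 2.10) and 0.985 for Tnni1 over Tnni2 (0.656 to 1.51). The difference ran the other way for Mybpc1 over Mybpc2 at 0.645 (0.556 to 0.749), Casq2 over Casq1 at 0.552 (0.432 to 0.706) and Actn2 over Actn3 at 0.737 (0.648 to 0.839). It was largest for Atp2a2 over Atp2a1 at 0.351 (0.333 to 0.369). Of these, only Mybpc1 belongs to the slow class. Casq2 was counted with the cardiac or embryonic forms, Actn2 with the structural genes, and Atp2a2 is no member.

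**Figure D3:**
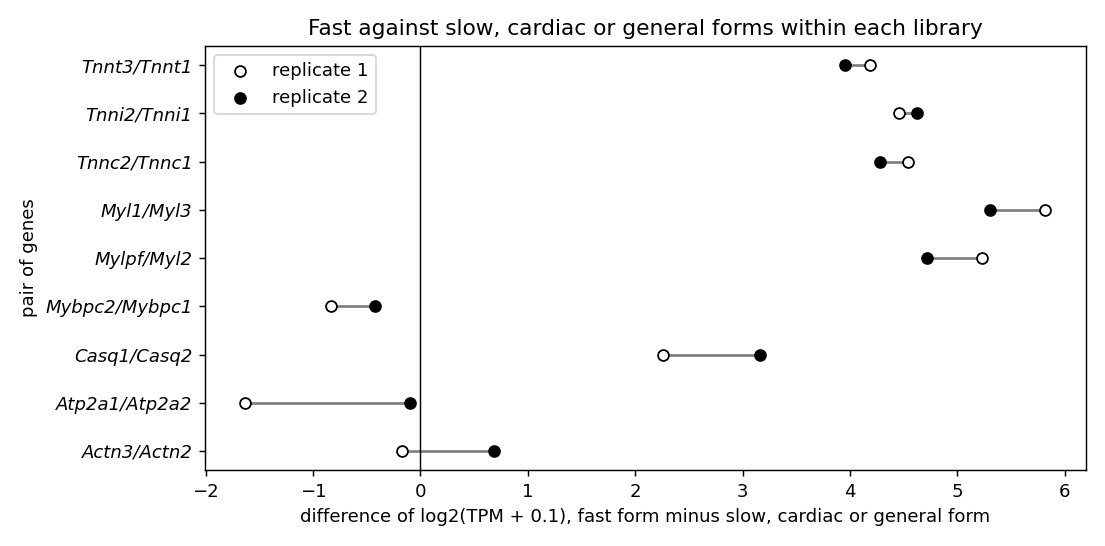
Difference of log2(TPM + 0.1) between the fast form and its slow, cardiac or general relative (x axis) for 9 gene pairs (y axis) in replicate 1 (open) and replicate 2 (filled). The troponin and light chain pairs lie between 3.95 and 5.82 in both libraries, while Mybpc2/Mybpc1 and Atp2a1/Atp2a2 lie below 0.

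Several members have close relatives in coding sequence, and reads from shared stretches can be split between them. Closest were the actins: over 1131 coding bases Acta1 was 86.3% identical to cardiac Actc1 and 85.4% identical to Acta2 of smooth muscle, with a longest shared run of 29 bases in each case. The following stretch, coding bases 64 to 123, shows how densely the 3 genes differ, and capitals mark the 13 positions at which they are not all the same.
Acta1: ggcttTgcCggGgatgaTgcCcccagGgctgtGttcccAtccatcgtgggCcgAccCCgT
Actc1: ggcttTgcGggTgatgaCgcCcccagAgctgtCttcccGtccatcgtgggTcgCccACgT
Acta2: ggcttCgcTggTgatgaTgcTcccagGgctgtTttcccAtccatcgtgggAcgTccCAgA
Actc1 and Acta2 each differ from Acta1 at 9 positions of this stretch. Acta2 stood at 15.6 and 44.9 TPM, so smooth muscle actin was the nearest abundant relative. Troponin, light chain, calsequestrin and myosin-binding protein C relatives were more distant, from 54.9% (Tnni1 and Tnni3) to 73.2% identical (Myl3 and Myl4), and Actn2 and Actn3 shared 74.9% with a longest run of 51 bases.

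Troponin genes lie in pairs of a troponin I with a troponin T gene. In mm10, Tnni2 (chr7:142441808-142444410, plus strand) and Tnnt3 (chr7:142498836-142516009, plus strand) are 54.4 kb apart with Lsp1 between them. Tnnt1 (chr7:4504570-4516382) and Tnni3 (chr7:4518305-4524229) lie 1.92 kb apart on the minus strand with no protein-coding gene wholly between them. The slow and cardiac partners of this close pair had unlike levels: 1.82 and 5.75 TPM for Tnnt1 against 0.15 and 0.26 TPM for Tnni3. Tnni1 (chr1:135779434-135810989) and Tnnt2 (chr1:135836354-135852260), both on the plus strand, are 25.4 kb apart with Lad1 between them, and here too the slow form stood above the cardiac one.

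Some gene bodies overlap another gene, and the sources do not state whether counting used strand. Tnnc1 shares its locus with Nisch on the opposite strand, which had 10946 and 9358 counts beside 24 and 84 for Tnnc1. Tnnc2 overlaps Ube2c with 418 and 304 counts, Myl3 overlaps Pth1r with 208 and 341, Mb overlaps Apol6 with 284 and 414, and Atp2a1 overlaps Rabep2 with 663 and 711, all on the opposite strand. Acta1 overlaps Gm20388 with 0 and 95 counts. Of these, Nisch and Ube2c had lower counts in replicate 2, unlike their muscle neighbours. Tnni3, with 4 and 5 counts, overlaps Dnaaf3 on the same strand, which had 20 and 16 counts, so strand could not separate this pair.

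Within a gene, transcripts that carry alternative exons add a developmental reading. These exons were chosen after transcript values were seen. Tnnt3 has an exclusive pair of coding exons near its 3′ end: the upstream exon (chr7:142513665-142513705) is known from adult and the downstream exon (chr7:142514326-142514366) from embryonic and newborn muscle. The pair is given on the plus strand with capitals at the 23 of 41 bases that differ.
Tnnt3 upstream exon: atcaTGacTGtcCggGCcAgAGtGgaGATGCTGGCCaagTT
Tnnt3 downstream exon: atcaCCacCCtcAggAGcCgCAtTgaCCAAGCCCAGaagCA
In the second transcript table, the downstream exon held 86.3% of the compared TPM in replicate 1 and 78.3% in replicate 2. The table from alignments gave 86.5% and 79.8%. The upstream exon had the rest, 13.7% and 21.7% in the second table and 13.5% and 20.2% in the table from alignments. The newborn-type exon thus led in both libraries and both tables, and its share was lower in replicate 2. No counting error was computed for these shares, so whether the libraries differ in them was not tested. A further Tnnt3 exon of 39 bases (chr7:142507750-142507788) cannot be read from these data: it took 79.4% and 80.0% in the second table but 16.1% and 13.7% in the table from alignments.

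Myl1 makes a long and a short essential light chain, called 1f and 3f, from separate start sites. Each form has a short exon of its own, on the minus strand of chromosome 1, shown as transcribed and with no letters in capitals since the exons are unrelated.
Myl1 1f exon (chr1:66934246-66934273): atcgagttctctaaggagcaacaggagg
Myl1 3f exon (chr1:66934518-66934542): tccttcagtgctgaccagattgccg
Shares were taken over the TPM of Myl1 transcripts with either exon. Transcripts with the 3f exon held 61.5% of this compared TPM in replicate 1 and 58.3% in replicate 2 by the second table. The table from alignments gave 67.2% and 61.1%. The 1f exon held 38.5% and 41.7%, and 35.5% and 39.7%. The shares of the second table add to the whole of the compared TPM, while 1 transcript with both exons makes those of the other table exceed it. Ldb3 has a heart exon and a skeletal exon that exclude each other. The skeletal exon held 93.8% and 97.4% of the TPM on transcripts with either exon by the second table and 90.7% and 93.3% by the other. This gene too was thus read mainly as its skeletal form.

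**Figure D4:**
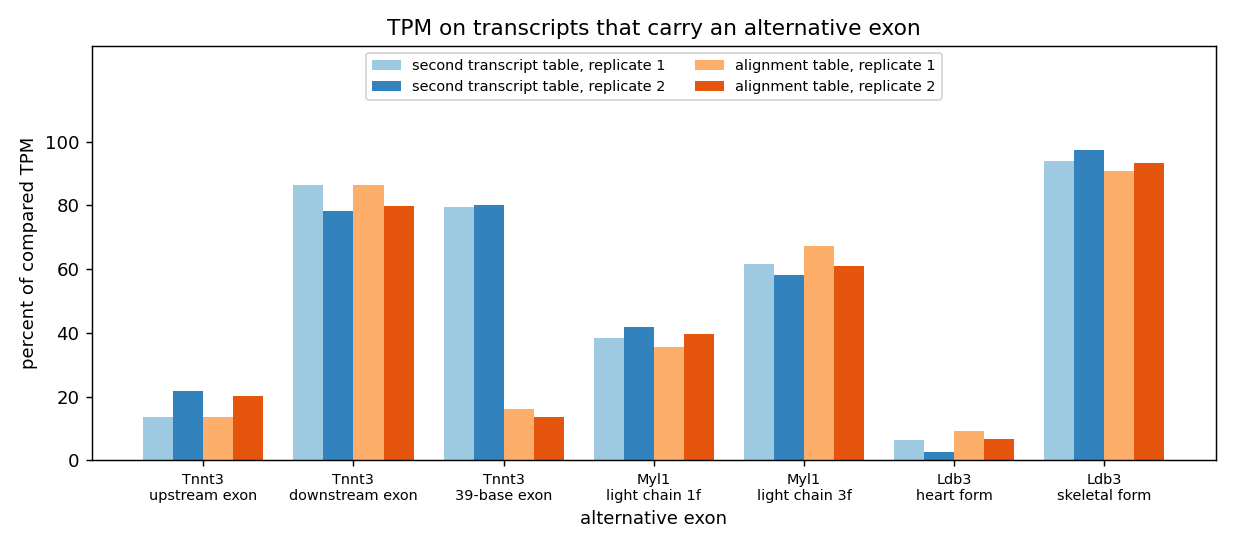
Percent of compared TPM (y axis, from 0) on transcripts that carry each alternative exon of Tnnt3, Myl1 and Ldb3 (x axis), as 4 bars for the 2 libraries in the second transcript table (blue) and the table from alignments (orange). The tables give like shares for the exclusive Tnnt3 pair, Myl1 and Ldb3, and differ for the 39-base Tnnt3 exon.

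Which single transcript led a gene often depended on the table. Of the 35 members, 34 have 2 or more annotated transcripts, up to 27. The most abundant transcript was the same in both libraries for 28 members in the second table and for 30 in the table from alignments, and only 21 had 1 leading transcript across both libraries and both tables. Acta1-201 held 59.4% and 60.1% of Acta1 in the second table and 99.1% and 99.2% in the other. Tnni2-201 took 99.0% and 98.5% of Tnni2 by alignments but 0.00244% and 0.0257% by the second table, which gave 51.2% and 53.2% to the retained-intron transcript Tnni2-203. Ckm-201 led in both, with 53.2% and 51.5% against 62.2% and 58.9%. Atp2a1-201 held 89.5% and 91.7% against 86.9% and 84.6%, and Mybpc1-202 held 57.4% and 56.3% against 45.4% and 45.5%.

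Upstream sequence was available for 28 of the 35 members in the RefSeq promoter table (GRCm38.p6). Among members whose RefSeq start lies within 50 bases of an annotated transcript start, the most abundant fast and slow ones were taken. For these, 120 bases before the start are printed. Capitals mark matches to the motifs E-box, TATA box, CArG box and MCAT motif, searched on both strands.
Acta1 (chr8:123894776-123894895, minus strand): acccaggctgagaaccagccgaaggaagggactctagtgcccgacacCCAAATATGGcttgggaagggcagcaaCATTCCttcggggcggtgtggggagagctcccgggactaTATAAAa
Mylpf (chr7:127211488-127211607, plus strand): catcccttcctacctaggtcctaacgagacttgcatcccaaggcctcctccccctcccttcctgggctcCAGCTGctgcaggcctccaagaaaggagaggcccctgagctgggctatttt
Mybpc1 (chr10:88605153-88605272, minus strand): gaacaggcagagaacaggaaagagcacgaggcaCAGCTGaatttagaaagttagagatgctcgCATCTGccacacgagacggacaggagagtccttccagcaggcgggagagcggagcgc
Tnnt1 (chr7:4515976-4516095, minus strand): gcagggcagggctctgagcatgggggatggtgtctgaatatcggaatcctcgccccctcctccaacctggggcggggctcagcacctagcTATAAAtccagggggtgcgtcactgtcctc
The Acta1 stretch holds a CArG box 73 to 64 bases, an MCAT motif 46 to 41 bases and a TATA box 7 to 2 bases before the RefSeq start, which lies 24 bases ahead of the start of Acta1-201. Mylpf holds 1 E-box and Mybpc1 holds 2, and Tnnt1 holds a TATA box 30 to 25 bases before its start.

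Over 250 upstream bases the CArG box, the known site of serum response factor, was found in 4 of 28 members (Acta1, Actc1, Ldb3 and Myl3), 14.3% against 1.62% of 27025 genes. The MEF2 motif, named for the MEF2 transcription factors, was found in 4 others (Casq2, Pvalb, Ttn and Xirp2), 14.3% against 3.42%. CATTCC, the MCAT core known from TEAD factors, was in 7 members, 25.0% against 14.4%, and the E-box CANNTG of the MyoD family was in 24, 85.7% against 69.3%. TATAAA was in 4 members, 14.3%, the same share as over all genes. A MEF2 match can share bases with a TATA match. These are letter matches in a window and were not tested as sites. No member held both a CArG box and a MEF2 motif.

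Other genes of the muscle program gave a mixed reading. For comparison, 4.37% of all 13190 genes with enough counts were more than 2-fold higher in replicate 2 and 0.114% more than 2-fold lower. A further list of 47 contraction and metabolism genes had 33 with enough counts, of which 17 were more than 2-fold higher in replicate 2 and 0 lower, with a median fold of 2.20. Its most abundant genes, Tpm1, Atp2a2, Tpm3 and Tpm2, include forms used widely outside muscle, and Tpm3 had a fold of 0.994 (0.951 to 1.04). Among 9 striated myosin heavy chains, 4 of the 6 with enough counts passed 2-fold: Myh4 at 2.44 (2.36 to 2.53), Myh1 at 2.43 (2.34 to 2.52), the perinatal Myh8 at 2.03 (1.89 to 2.19) and the slow and ventricular Myh7 at 4.13 (3.62 to 4.72), while Myh2 was at 1.66 (1.56 to 1.76) and the embryonic Myh3 at 1.85 (1.45 to 2.38).

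Markers of muscle precursors were scarce, and few genes of the nerve contact reached 1 TPM. In a list of 14 myogenic regulators the most abundant were Mef2d, Mef2a and Mef2c, which are expressed in many tissues and had folds from 0.991 to 1.06. Myod1, Myog, Myf5 and Pax7, which mark myoblasts and satellite cells, all stayed under 1 TPM, with at most 35 counts. None of the 5 regulators with enough counts passed 2-fold, beside 4.37% of all such genes higher and 0.114% lower. Over the 13 with more than 3 counts in 1 library the median fold was 2.47, and 12 were higher in replicate 2, most of them on few counts. Among all annotated genes past that filter, 51.4% were higher. Myog had 10 and 35 counts, a fold of 3.50 (1.70 to 7.93), and Myf6 had 10 and 34, a fold of 3.40 (1.64 to 7.72). In the neuromuscular junction list, led by Dok7, Lrp4, Chrnb1 and Rapsn, 2 of 9 genes (Dok7 and Lrp4) reached 1 TPM in both libraries, and neither passed 2-fold. Among the 8 with more than 3 counts in 1 library the median fold was 1.15, with 6 higher in replicate 2 and 2 lower. Some rested on few counts: Chrna1 had 5 and 20, a fold of 4.0 (1.46 to 13.7), Chrnd had 0 and 8, and Chrne had 5 and 1.

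Lists of other tissues also differed between the libraries, and their part in the result was not tested. The shares over all genes with enough counts were 4.37% more than 2-fold higher in replicate 2 and 0.114% more than 2-fold lower. All 10 liver genes, led by Alb, Ahsg, Trf and Apoa1, were more than 2-fold higher in replicate 2 (median 3.41), with summed levels of 4647.2 and 14669.5 TPM. All 4 granulocyte genes with enough counts, among a list of 8 led by S100a9, S100a8, Ngp and Ltf, passed 2-fold (median of the list 3.41), with sums of 33.2 and 102 TPM. Bone and cartilage genes, led by Bglap, Bglap2, Col2a1 and Ibsp, had 6 of 7 past 2-fold and the largest median fold of these lists, 26.3, on 355 and 3314 counts in all, with sums of 3.85 and 65.7 TPM. Smooth muscle genes, led by Acta2, Tagln, Smtn and Mylk, had 4 of 8 past 2-fold (median 2.02) and sums of 67.1 and 127 TPM. Brown fat genes, led by Ucp1, Cox8b, Cox7a1 and Cidea, had 0 of 9 past 2-fold (median 1.01) and sums of 3496.1 and 3090.0 TPM. All 8 cortex and all 8 chromaffin genes were lower in replicate 2, with median folds of 0.923 and 0.879. Among all genes with enough counts, 48.9% were higher in replicate 2.

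**Figure D5:**
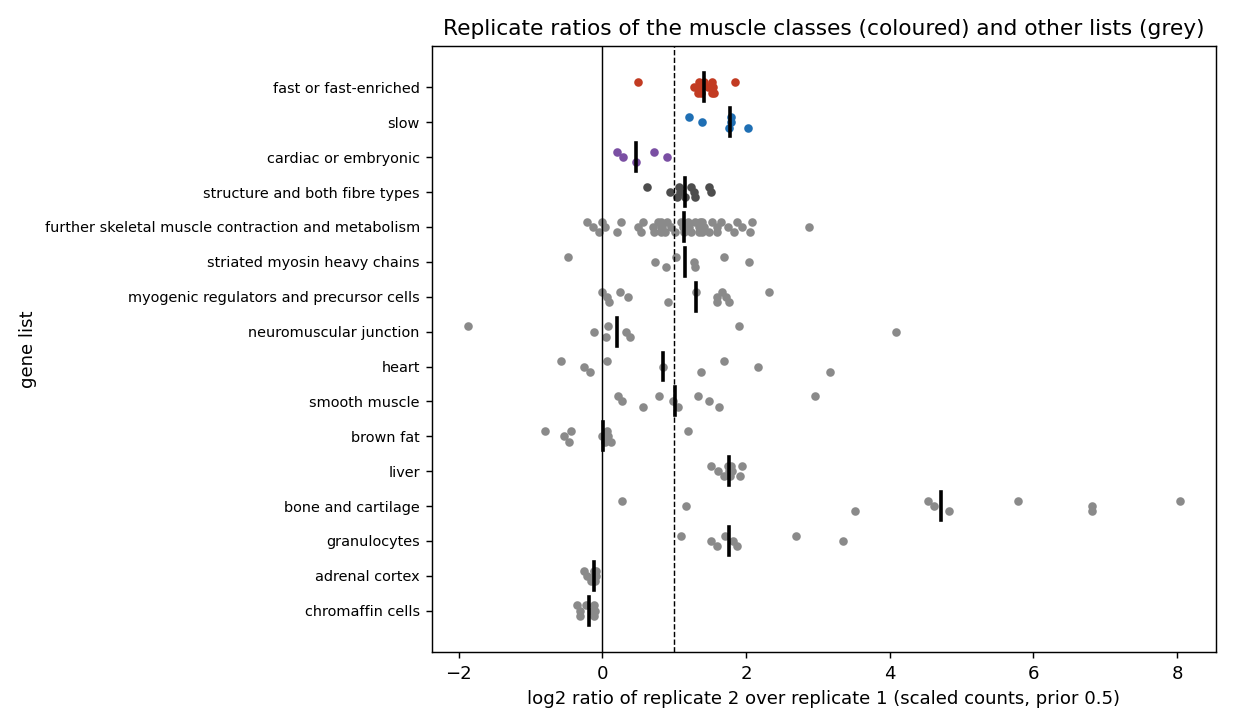
Log2 ratio of replicate 2 over replicate 1 (x axis, scaled counts with a prior of 0.5) for each gene of the 4 classes of the module (coloured) and of 12 other lists (grey) on the y axis, genes with 3 or fewer counts in both libraries left out; black bars are medians, the solid line marks 0 and the dashed line 2-fold. Bone and cartilage has the highest median (4.72); the fast, slow and structural classes, further muscle genes, myosin heavy chains, myogenic regulators, smooth muscle, liver and granulocytes also have medians above the dashed line, and cortex and chromaffin medians lie just below 0.

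Levels within the module kept their order between the libraries. Over the 35 members, which share 1 library per replicate, log2(TPM + 0.1) of both replicates had a Pearson r of 0.984 and TPM a Spearman rho of 0.979, given as descriptions. The replicate ratio had a Spearman rho of -0.243 with effective length and of 0.241 with mean TPM over the same members, weak relations that are no finding.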

How the data were processed

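Total RNA of adrenal gland was measured in 2 libraries, 1 per replicate number of the labels; nothing tells separate animals apart with certainty. Per the file headers and accompanying notes, the authors made a gene and a transcript table from alignments to mm10 with GENCODE M21, with expected counts (not normalised) and TPM, and a second transcript table directly from the reads and an index, with estimated counts and TPM. Bounds of TPM intervals, also deposited, are not printed. Which software made the tables is not given in the sources used here.

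Expected counts were rounded to whole numbers and scaled by TMM (edgeR 4.0.16). Log2 ratios used a prior of 0.5 counts; folds of single genes used none and carry exact 95% Clopper-Pearson intervals. Counts past 2-fold needed a mean of at least 100 counts, and list medians more than 3 counts in 1 library. Without molecular identifiers, intervals and the floor of 3 counts cover counting error only. The ratio computation was tested on simulated data. Coding identity came from global alignments (Biopython 1.88). Scaling ran in R 4.3.3, and the rest in Python 3.11.15 (scipy 1.17.1, pandas 2.3.3, numpy 2.4.6), with plots by matplotlib 3.10.9. Alternatives used DESeq2 (1.42.0) size factors, library and spike-in totals, other minimums, pseudocounts and tables.

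Members and lists were chosen with earlier results of these data known. Values are printed for members with a mean of at least 1 TPM, the others by range. The 4 most abundant genes of each further list are named. Transcripts are named as examples from members where 2 or more take at least 10% of the gene. Not all such members are covered. Other genes given as examples (among them Nppa, Nppb, Nkx2-5, Myl7, Myh6, Bmp10, the myosin heavy chains and the regulators) and the alternative exons were chosen after their values were seen. Myl2 was passed over for the printed promoters because its RefSeq starts lie far from annotated ones. The values of 1 gene that this rule takes are not reported here.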

Additional observations from a re-analysis of the deposited data

How the results depend on the processing

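The median log2 ratio of the module was 1.33 and stayed between 1.24 and 1.33 under 8 alternatives of scaling, filter, prior, averaging and table. The count of members more than 2-fold higher, 24 in the report, was 22 to 24 under other scalings, 23 by the second table, 27 with a minimum of 10 counts or none, and 12 with a mean of at least 1000 counts, where fewer genes are tested. The median level of 8.42 TPM became 25.0 TPM when rescaled over nuclear protein-coding genes and 12.9 TPM by the second table; each library alone gave 5.44 and 11.4 TPM. The median fast minus slow difference of 4.07 became 3.71 with a pseudocount of 1 TPM, 3.65 by the second table and 2.78 as a mean over pairs, and was 3.95 to 4.19 in single libraries. The share of counts, 0.198% in the mean, was 0.321% over nuclear protein-coding genes and 0.135% to 0.261% in single libraries. Apart from the alternatives whose construction shows it (fewer genes tested, another denominator), the cause was not tested. Of 140 alternative values of single members 134 stayed within the counting interval, 6 moved, all under scaling by library or spike-in total (Acta1, Ttn, Atp2a1 and Neb), and 0 fell below 1. Library totals moved all log2 ratios by 0.0776 and spike-ins by 0.0563. Members that fell below 2-fold were Myot and Eno3 by library total (1.95 and 1.97), Myot by spike-in total (1.98) and Tcap by the second table (1.95). No paired analysis was possible because the series has a single group. Depth limits the scarce slow and cardiac forms most, since 6 members had a mean below 100 counts.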
